A study of Homo sapiens with 9 samples.

Results

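A set of 10 transcription factors of stem cell, erythroid and megakaryocyte programmes were examined in HNT34, a human acute myeloid leukemia (AML) cell line with high EVI1, after knockdown of *EVI1*. The factors were listed by name, *GATA1*, *GFI1B*, *TAL1*, *LMO2*, *LYL1*, *KLF1*, *NFE2*, *FLI1*, *ERG* and *MYB*, with no threshold on a measured value. They and the gene lists below were chosen with earlier results of these data known. Counts set beside the share of all genes are therefore descriptions, not tests of the lists. Of the 10 listed, 9 had values in the count table of 16612 genes, all 9 passed the filter on low counts, and *KLF1* was not analysed here. In all, 3 groups of 3 poly(A)-selected RNA-Seq libraries were compared: HNT34 cells with a non-targeting shRNA (NT), with *EVI1* shRNA sh#16, and with *EVI1* shRNA sh#87. All cells of all groups carried a lentiviral shRNA vector with puromycin resistance, and RNA was taken 3 days after selection. The sh#87 libraries carry this number in their titles, whereas their treatment field reads #18. No source used here says that the 3 libraries of a group came from separate cultures, so p-values measure the spread between these libraries, which may be technical, and everything rests on 1 cell line. In bulk RNA, fewer cells of a type and less RNA per cell cannot be told apart.

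Some of these factors act on DNA in shared complexes. GATA1, the repressor GFI1B, KLF1 and NFE2 take part in the erythroid programme, the megakaryocyte programme or both. TAL1 or its relative LYL1 pairs with an E protein and is joined to GATA factors through the bridging proteins LMO2 and LDB1. The ETS factors FLI1 and ERG and the factor MYB maintain blood stem and progenitor cells, and FLI1 and NFE2 also serve platelet formation. TAL1, LYL1, LMO2, FLI1, ERG, GATA2 and RUNX1 together form a group of stem cell regulators known as the heptad.

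Promoter sequences of 4 factors with values are shown that hold the core of the GATA motif, because GATA factors bind many of these genes in blood cells. RefSeq (GRCh38.p14) gave 12 promoter entries for 7 of the factors, each of 300 bases (250 before and 50 after a start), and none for *LMO2*, *NFE2* and *FLI1*. A search on both strands for GATA with A or T before it and A or G after it found a match in 7 of the 12 entries, from 5 factors (*GFI1B*, *TAL1*, *LYL1*, *KLF1* and *ERG*), and none in the entries of *GATA1* and *MYB*. The entry of *KLF1* is not shown, since its RNA was not analysed here. Over all promoters in the RefSeq table, 25% of 35116 entries held such a match, and 16.1% of the 15229 entries of genes in the count table did. The 250 bases before the start follow, 5′ to 3′ on the gene's strand, with the matches in capitals.
TAL1, chr1:47232336-47232585, minus strand: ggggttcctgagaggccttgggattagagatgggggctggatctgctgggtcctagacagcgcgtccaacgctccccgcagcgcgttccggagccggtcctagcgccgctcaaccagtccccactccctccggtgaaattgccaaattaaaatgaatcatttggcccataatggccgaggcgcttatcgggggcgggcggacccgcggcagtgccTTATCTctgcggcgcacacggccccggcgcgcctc
LYL1, chr19:13102859-13103108, minus strand: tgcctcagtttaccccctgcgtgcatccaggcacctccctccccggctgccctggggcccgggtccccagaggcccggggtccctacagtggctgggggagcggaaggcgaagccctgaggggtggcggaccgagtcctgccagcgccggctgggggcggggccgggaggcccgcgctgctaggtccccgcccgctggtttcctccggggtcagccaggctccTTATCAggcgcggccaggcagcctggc
GFI1B, entry 2, chr9:132978444-132978693, plus strand: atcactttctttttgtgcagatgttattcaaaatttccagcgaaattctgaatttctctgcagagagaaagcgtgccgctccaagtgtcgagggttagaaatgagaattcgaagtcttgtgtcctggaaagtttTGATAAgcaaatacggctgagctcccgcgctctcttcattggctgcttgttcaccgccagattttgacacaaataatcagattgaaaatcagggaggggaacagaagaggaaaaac
ERG, entry 3, chr21:38498505-38498754, minus strand: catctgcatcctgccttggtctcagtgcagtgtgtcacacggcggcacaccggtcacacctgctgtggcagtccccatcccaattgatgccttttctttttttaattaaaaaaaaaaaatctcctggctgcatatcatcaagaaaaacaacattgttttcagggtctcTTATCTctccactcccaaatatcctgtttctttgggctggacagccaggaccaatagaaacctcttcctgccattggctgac
The match began 35 bases before the start in *TAL1*, 27 in *LYL1*, 116 in *GFI1B* and 82 in *ERG*. Another match in *LYL1* lay just past the start, and entry 4 of *ERG* overlaps entry 3 and holds the same match. These are matches of letters, and no binding was measured in these libraries.

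Library totals ran from 17096170 to 43502389 counts. *MECOM*, the gene that encodes EVI1, was at 571, 504 and 440 counts per 1000000 (CPM, with TMM-scaled library sizes) in NT replicates 1, 2 and 3, at 143 to 145 CPM with sh#16 and at 106 to 109 CPM with sh#87. Its level in every knockdown library lay below every NT library (exact permutation test, 6 against 3, two-sided p = 0.0119, the smallest this design allows). The NT libraries stood apart from each other. Their mitochondrial share of counts was 15.9%, 11.5% and 4.69%, against 2.69% to 2.88% with sh#16 and 4.62% to 5.97% with sh#87, and their biological coefficient of variation was 25.0%, against 3.77% and 6.96%. Of 8 markers of the line, 6 were analysed, *MECOM*, *CD34*, *KIT*, *CD33*, *ANPEP* and *PTPRC*, and their summed level was 2362 to 2564 CPM in NT, 755 to 764 CPM with sh#16 and 450 to 453 CPM with sh#87. Of these 6, 4 were lower with both shRNAs, while *CD33* (log2 fold change -0.22, edgeR adjusted p = 0.0343) and *ANPEP* (-0.35, adjusted p = 0.292) did not pass the test. For 15 markers of other cell types, 10 were analysed, and their sum was 388 to 434 CPM in NT, 191 to 196 CPM with sh#16 and 140 to 145 CPM with sh#87. Of these 10, 5 were lower with both shRNAs (*CD3E*, *CD79A*, *KRT8*, *PECAM1* and *CDH5*), 3 were higher, and *NKG7* and *KRT18* did not pass the test. Over all genes tested, 29.7% were lower and 30.1% were higher by the same test, so the share of these 10 markers that was higher was close to that of all genes. *CD3G* was at 0 in 2 NT libraries, and *COL1A1* was at 0.0433 to 0.172 CPM in NT and at 25.9 to 30.3 CPM in the knockdown libraries. The part of these differences in the results that follow was not tested.

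With both shRNAs as 1 group against NT, 8 of the 9 factors were lower and none was higher. A call required an adjusted p of at most 0.01 by edgeR's quasi-likelihood test with Benjamini-Hochberg adjustment over all genes tested. By this rule 29.7% of all 16312 genes tested were lower and 30.1% were higher. *FLI1*, *ERG* and *MYB* also passed a log2 fold change of -2, as did 5.66% of all genes. The median log2 fold change was -1.47 over the factors and 0.05 over all genes. In 7 of the 9 factors every knockdown library lay below every NT library, which held for 32.1% of all genes, and the exceptions were *GATA1* and *LYL1*.

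**Figure D1:**
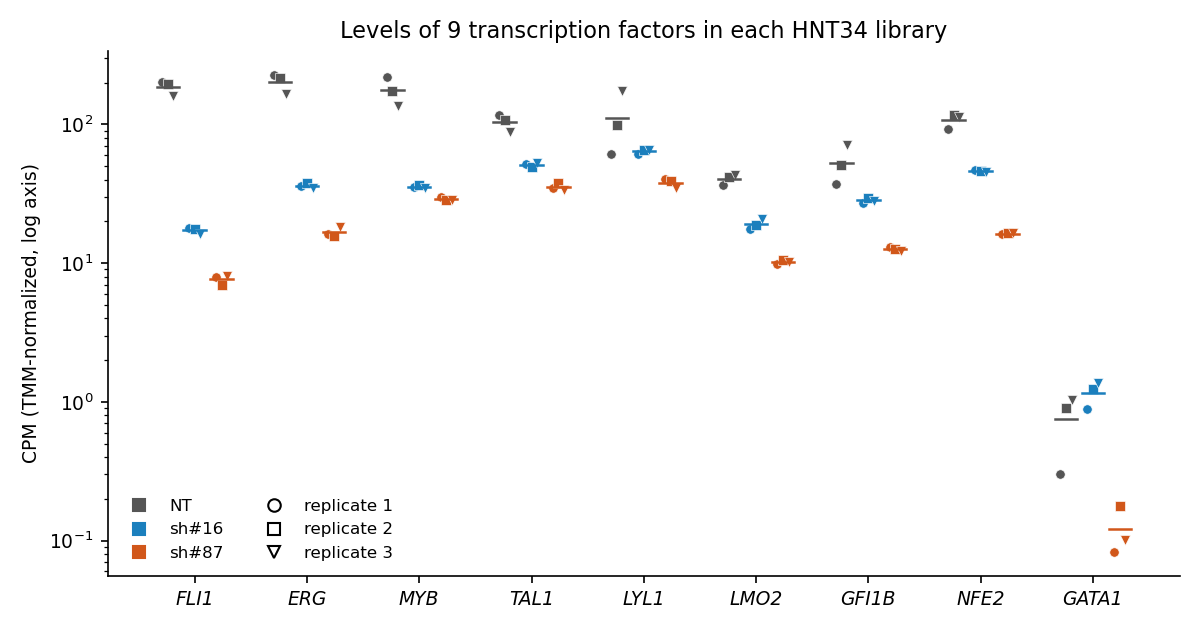
Level of each factor in CPM (log axis) in the 9 HNT34 libraries, with symbols for replicates, colours for groups and short lines for group means. FLI1 sits between 159 and 200 CPM in NT and between 6.97 and 17.8 CPM in the knockdown libraries, while GATA1 reaches at most 1.37 CPM.

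The ETS factors FLI1 and ERG, which share a DNA-binding domain, showed the largest drops of the 9 with both shRNAs and with each. *FLI1* was at 200, 196 and 159 CPM in NT, at 17.8, 17.6 and 16.3 CPM with sh#16 and at 7.90, 6.97 and 8.13 CPM with sh#87. The 3 groups did not overlap, and with both shRNAs *FLI1* kept 6.76% of its NT level (log2 fold change -3.89 ± 0.31 SE, adjusted p = 2.20e-06, edgeR quasi-likelihood test). *ERG* was at 228, 215 and 166 CPM in NT, at 36.0, 37.5 and 34.7 CPM with sh#16 and at 16.2, 15.6 and 18.4 CPM with sh#87. Its groups were likewise apart, and 13.03% of the NT level remained (log2 fold change -2.94 ± 0.30 SE, adjusted p = 1.16e-05, edgeR). The long noncoding RNA *SENCR*, which overlaps *FLI1*, also fell, from 5.24 to 6.68 CPM in NT to 0.915 to 2.90 CPM in the knockdown libraries (log2 fold change -1.72 ± 0.34 SE, edgeR adjusted p = 0.00108). The kit marks strand, but the strand setting of the counting is not given in the sources used here, so reads of *FLI1* and *SENCR* may not have been told apart.

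MYB, a factor that keeps progenitors dividing and is lost as blood cells mature, also passed the fold. *MYB* was at 221, 174 and 136 CPM in NT, at 35.3, 36.5 and 34.8 CPM with sh#16 and at 30.0, 28.3 and 28.5 CPM with sh#87. Both knockdown groups were far below NT and close to each other. With both shRNAs 18.2% of the NT level remained (log2 fold change -2.46 ± 0.14 SE, adjusted p = 3.25e-07, edgeR quasi-likelihood test).

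Of the components of the TAL1 complex, the listed factors *TAL1*, *LMO2* and *LYL1* fell by less than *FLI1*, *ERG* and *MYB*. *TAL1* was at 117, 107 and 88.7 CPM in NT, at 51.6, 49.4 and 52.4 CPM with sh#16 and at 34.9, 37.9 and 33.6 CPM with sh#87, without overlap between the groups (log2 fold change with both shRNAs -1.27 ± 0.16 SE, edgeR adjusted p = 6.28e-05). *LMO2*, the bridging protein, was at 36.5, 41.8 and 43.3 CPM in NT, at 17.5, 18.9 and 20.8 CPM with sh#16 and at 9.81, 10.5 and 10.3 CPM with sh#87. Here too the groups were apart (log2 fold change -1.47 ± 0.25 SE, edgeR adjusted p = 0.000356). *LYL1* was at 61.1, 99.7 and 173 CPM in NT, a 2.84-fold range, at 61.2, 65.8 and 65.5 CPM with sh#16 and at 40.1, 39.2 and 34.8 CPM with sh#87. NT replicate 1 thus lay just under the lowest sh#16 library, while the sh#87 libraries were below all others. The call for *LYL1* with both shRNAs (log2 fold change -1.12 ± 0.31 SE, edgeR adjusted p = 0.00714) was lost without NT replicate 3 (-0.67, adjusted p = 0.0520), without NT replicate 2 (-1.20, adjusted p = 0.0164), and without any 1 of the sh#87 libraries (adjusted p = 0.0140 to 0.0164). Corrected for transcript length and GC content, its log2 fold change was -2.13.

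The repressor GFI1B and the platelet and erythroid factor NFE2 both fell, and more with sh#87. *GFI1B* was at 36.9, 51.3 and 70.9 CPM in NT, at 27.2, 29.5 and 28.2 CPM with sh#16 and at 12.97, 12.7 and 12.2 CPM with sh#87. The lowest NT library was still above the highest knockdown library (log2 fold change with both shRNAs -1.37 ± 0.33 SE, edgeR adjusted p = 0.00382). That call was lost without NT replicate 2 (-1.40, adjusted p = 0.0125) and without NT replicate 3 (-1.12, adjusted p = 0.0201). *NFE2* was at 92.9, 118 and 113 CPM in NT, at 47.3, 45.8 and 45.1 CPM with sh#16 and at 16.1, 16.4 and 16.6 CPM with sh#87. Its groups were widely separated, and 29.0% of the NT level remained with both shRNAs (log2 fold change -1.79 ± 0.38 SE, edgeR adjusted p = 0.00174).

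GATA1, the main factor of erythroid and megakaryocyte maturation, was hardly expressed in this line. *GATA1* had 7, 21 and 31 counts in NT, 22, 57 and 25 counts with sh#16 and 2, 4 and 2 counts with sh#87, or 0.301 to 1.03, 0.883 to 1.37 and 0.0832 to 0.179 CPM. A total of 3 counts amounts to 0.0648 to 0.164 CPM in these libraries, so the sh#87 values lie around the limit of detection. The NT and sh#16 libraries overlapped, and the sh#87 libraries were below both. Summed over libraries, the ratio of NT to sh#87 was 6.39 (exact 95% interval 3.04 to 15.5, counting error only). With both shRNAs *GATA1* did not pass the test (log2 fold change -0.20 ± 0.78 SE, edgeR adjusted p = 0.829), and the 2 shRNAs gave 0.61 ± 0.38 (adjusted p = 0.183) with sh#16 and -2.60 ± 0.56 (adjusted p = 0.00210) with sh#87. The sh#87 call was lost without sh#87 replicate 1 (-2.37, adjusted p = 0.0122).

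**Figure D2:**
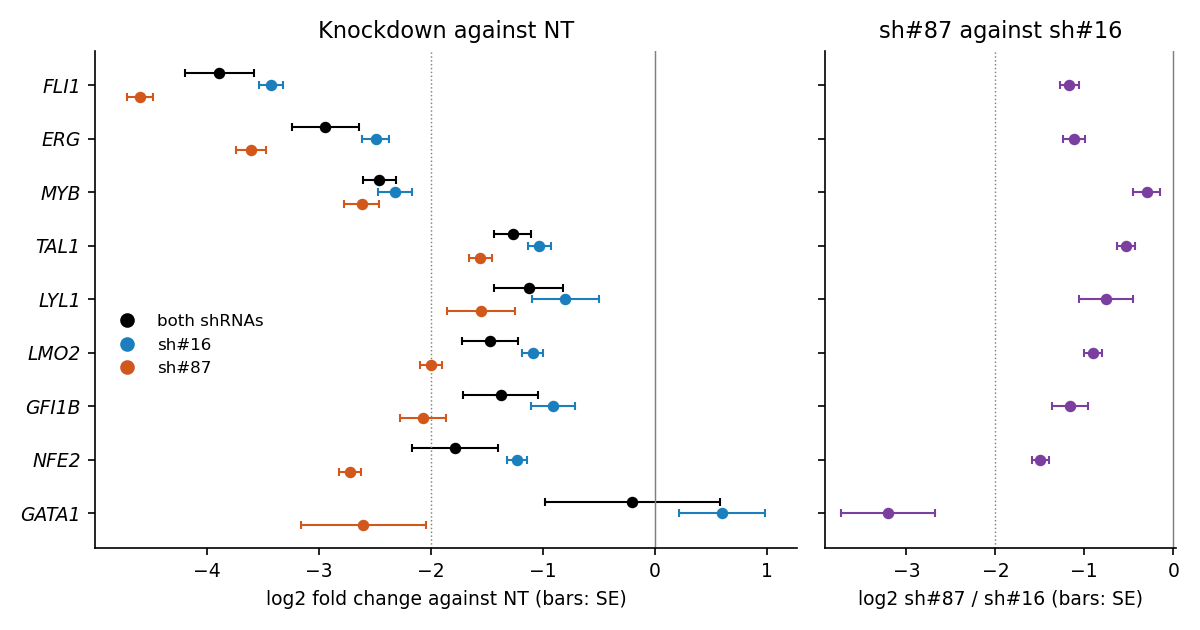
Left, log2 fold change against NT of each factor with both shRNAs (black), sh#16 (blue) and sh#87 (orange). Right, log2 ratio of sh#87 to sh#16. Bars are standard errors and the dotted line marks a log2 fold change of -2, which FLI1, ERG and MYB pass with each shRNA and GATA1, GFI1B and NFE2 with sh#87.

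Each shRNA was also compared with NT separately, over the same 3 NT libraries. With sh#16, 7 of 9 factors were lower, against 30.2% of all genes, and 3 passed the fold, against 4.84%. *GATA1* and *LYL1* (log2 fold change -0.80 ± 0.30 SE, edgeR adjusted p = 0.0371) did not pass. *LYL1* passed without NT replicate 1 (-1.11, adjusted p = 0.000537), with length and GC correction (-1.79, adjusted p = 8.26e-09) and by DESeq2 (-0.81, adjusted p = 0.00920), and its value was -0.35 without NT replicate 3. *GFI1B* lost its sh#16 call without sh#16 replicate 1 or 3 (adjusted p = 0.0117 and 0.0105) and in a fit of the sh#16 and NT libraries alone (-0.89, adjusted p = 0.0117). With sh#87, 9 of 9 were lower, against 33.6% of all genes, and 6 passed the fold, against 7.14%. Both counts include *GATA1*. It passed the filter on low counts only with the sh#16 libraries, and a fit of NT and sh#87 alone did not test it. *LMO2* lay just outside at -1.99, and *GFI1B* just inside at -2.07. *FLI1* kept 9.32% of its NT level with sh#16 and 4.14% with sh#87, *ERG* kept 17.8% and 8.24%, and *MYB* kept 20.1% and 16.3%. For *NFE2* the shares were 42.7% with sh#16 and 15.2% with sh#87, for *LMO2* 47.0% and 25.1%, for *TAL1* 49.0% and 34.0%, and for *LYL1* 57.5% and 34.1%. The median of the factors was -1.09 with sh#16 and -2.60 with sh#87, while that of all genes was 0.04 in both comparisons. The sh#87 median is the value of *GATA1* itself, so the limit on *GATA1* holds for it too.

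Levels with sh#87 were lower than with sh#16 in 7 of 9 factors, against 9.42% of all genes, and 1 of them, *GATA1*, passed the fold, as did 0.166% of all genes. *GATA1* had passed the filter on low counts only through the sh#16 libraries, the higher group of this comparison. The log2 ratio of sh#87 to sh#16 was -3.21 ± 0.53 SE for *GATA1*, -1.50 ± 0.09 for *NFE2* and -1.17 ± 0.11 for *FLI1* (edgeR adjusted p = 0.00236, 4.46e-05 and 0.000182). It was -1.16 ± 0.20 for *GFI1B*, -1.11 ± 0.12 for *ERG*, -0.90 ± 0.10 for *LMO2* and -0.53 ± 0.10 for *TAL1*. *MYB* (-0.30 ± 0.15, adjusted p = 0.155) and *LYL1* (-0.75 ± 0.30, adjusted p = 0.0845) did not pass. The fit estimates the spread of each gene over all 9 libraries, so these SEs and p-values also carry the spread among NT libraries. *LYL1* was at 61.2 to 65.8 CPM with sh#16 and at 34.8 to 40.1 CPM with sh#87, and its SE was 0.15 without NT replicate 3. The median was -1.11 over the factors and -0.02 over all genes. *MECOM* was itself lower with sh#87 than with sh#16 (log2 ratio -0.43, edgeR adjusted p = 0.00661). The count of 7 fell to 4 without sh#16 replicate 2 or 3 or without any 1 of the sh#87 libraries, with *GATA1*, *GFI1B* and *TAL1* losing their calls (adjusted p = 0.0101 to 0.0262). *GFI1B* and *TAL1* also lost them without sh#16 replicate 1, and *TAL1* without NT replicate 2 (adjusted p = 0.0104). *LYL1* passed without NT replicate 1 or 3 (adjusted p = 0.00810 and 0.00284).

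Per kilobase of transcript, the order of the levels in NT was *LYL1* at 75.2 ± 38.5 CPM per kb (SD, n = 3), *NFE2* at 65.1 ± 7.91, *FLI1* at 48.4 ± 5.90, *MYB* at 48.1 ± 11.5, *ERG* at 41.4 ± 6.74, *GFI1B* at 29.5 ± 9.50, *TAL1* at 22.5 ± 3.10, *LMO2* at 19.5 ± 1.71 and *GATA1* at 0.511 ± 0.268. Neighbours in this order differed by less than their summed SDs, except *NFE2* and *FLI1*, and *LMO2* and *GATA1*. With sh#87 the order changed: *LYL1* at 25.7 ± 1.92 CPM per kb and *NFE2* at 9.87 ± 0.146 still led, but *FLI1* at 2.005 ± 0.161 and *ERG* at 3.41 ± 0.295 now stood below *LMO2* at 4.89 ± 0.159, and *GATA1* at 0.0828 ± 0.0346 came last. *MYB* at 7.85 ± 0.248, *TAL1* at 7.64 ± 0.473 and *GFI1B* at 7.02 ± 0.217 CPM per kb stood next to each other within their summed SDs.

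Of the 7 heptad genes, 5 were lower with both shRNAs, against 29.7% of all genes. These are the 5 that are among the listed factors, so they were already counted above. *GATA2*, the GATA factor of stem cells, was at 76.0, 107 and 123 CPM in NT and at 72.7 to 81.5 CPM in the knockdown libraries (log2 fold change -0.41, edgeR adjusted p = 0.0149). *RUNX1* was at 241, 234 and 197 CPM in NT, at 214 CPM in every sh#16 library and at 131 to 139 CPM with sh#87. The sh#16 level lay within the NT range and the sh#87 level below it, and *RUNX1* passed with sh#87 (log2 fold change -0.74, edgeR adjusted p = 2.24e-05) but not with both shRNAs (-0.36, adjusted p = 0.116).

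Of 25 genes for partner proteins of the factors, 10 were lower and 6 higher with both shRNAs, against 29.7% lower and 30.1% higher over all genes, with a median log2 fold change of -0.27. *LDB1*, which dimerizes to join GATA and TAL1 complexes, was at 63.0 to 98.1 CPM in NT and 74.8 to 82.6 CPM in the knockdown libraries (-0.09, edgeR adjusted p = 0.524). The E proteins pair with TAL1 and LYL1, and of these *TCF12* fell from 146 to 149 CPM in NT to 57.2 to 66.1 CPM in the knockdown libraries (-1.26, edgeR adjusted p = 2.70e-07). *TCF4* was lower as well (-0.91, adjusted p = 0.000651), while *TCF3* did not pass (-0.27, adjusted p = 0.0326). *ZFPM1*, the GATA1 cofactor FOG1, was higher (1.02, adjusted p = 0.000661). The lowest were *CBFA2T3*, the ETO2 corepressor of TAL1 complexes (156 to 212 CPM in NT, 25.2 to 36.2 CPM in the knockdown libraries, log2 fold change -2.64), and the deacetylase *HDAC2* (-1.53). The highest were *ID3* and *ID2*, which sequester E proteins. *ID3* was at 0.344 to 0.901 CPM in NT, 33.1 to 34.6 CPM with sh#16 and 90.7 to 96.9 CPM with sh#87, and *ID2* rose from 20.1 to 20.8 CPM to 64.8 to 114 CPM (log2 fold change 2.07, edgeR adjusted p = 1.80e-05).

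Of 26 relatives of the factors within their families, 13 were lower and 4 higher with both shRNAs, against 29.7% lower and 30.1% higher over all genes (median -0.47). The counts within single families are small and are read against the same shares. In the ETS family, 6 of 9 other genes were lower and 1 higher. *ETS1*, the neighbour of *FLI1* on chromosome 11, was at 69.7 to 73.7 CPM in NT, 97.0 to 98.2 CPM with sh#16 and 63.1 to 65.2 CPM with sh#87, so that it was higher with sh#16 (log2 fold change 0.44, edgeR adjusted p = 6.88e-05) and did not pass with sh#87 (-0.17, adjusted p = 0.0170). *SPI1*, the myeloid factor PU.1, and *ETV6* were the lowest of these relatives, both at -2.40. *GFI1*, the relative of *GFI1B*, fell (-0.95, adjusted p = 0.000191), as did *NFE2L2*, the oxidative stress factor NRF2 (-0.85, adjusted p = 9.89e-05). *LMO4* (-0.23, adjusted p = 0.0378) and *MYBL2* (0.24, adjusted p = 0.119) did not pass, whereas *MYBL1* rose from 9.31 to 15.6 CPM in NT to 35.2 to 50.2 CPM in the knockdown libraries (1.76, adjusted p = 2.95e-05). Of 8 KLF genes, 4 were lower and 1 higher. The latter, *KLF2*, was at 0.172 to 0.434 CPM in NT, 8.75 to 9.27 CPM with sh#16 and 2.01 to 3.28 CPM with sh#87.

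**Figure D3:**
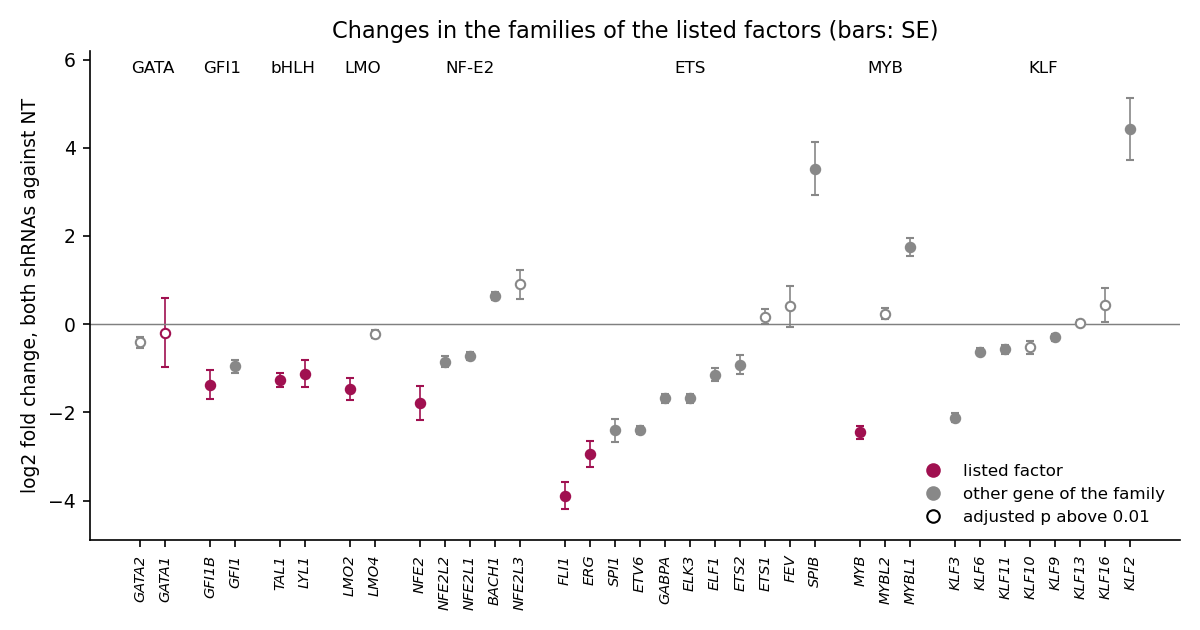
Log2 fold change with both shRNAs against NT of the 9 factors and of other genes of their families, ordered within each family, with standard errors as bars and open symbols for an adjusted p above 0.01. FLI1 at -3.89 and ERG at -2.94 are the lowest ETS genes, and MYB at -2.46 stands opposite MYBL1 at 1.76.

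Stem cell, megakaryocyte, erythroid and myeloid genes were counted by hand-written lists, chosen with earlier results of these data known. Whether the factors regulate the listed genes in these cells was not tested. Over all genes, 29.7% were lower and 30.1% higher with both shRNAs, and the median log2 fold change was 0.05. Of 30 stem cell genes, 25 were tested, with 14 lower and 4 higher and a median of -0.82. *CD34*, the progenitor surface marker, was at 757, 769 and 667 CPM in NT, 114 to 118 CPM with sh#16 and 41.2 to 43.5 CPM with sh#87 (log2 fold change -3.20, edgeR adjusted p = 3.31e-05). *ANGPT1*, a ligand made by stem cells, was also lower (-3.11), while the endothelial protein C receptor *PROCR* (1.70) and *HOXA10* (0.50) were higher. Of 30 megakaryocyte genes, 16 were tested, with 8 lower and 3 higher and a median of -0.77. The collagen receptor *GP6* was at 14.1 to 16.3 CPM in NT and at 0.0803 to 0.559 CPM in the knockdown libraries, *CD36* fell by 4.11 on the log2 scale, and the adhesion protein gene *VCL* was higher (1.80).

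Of 42 erythroid genes listed, 20 were tested, and 10 were lower and 6 higher (median -0.42), where the share higher was close to the 30.1% of all genes and 29.7% of all genes were lower. *RHAG*, part of the Rh membrane complex, was at 16.5 to 19.2 CPM in NT and at 0.402 to 0.951 CPM in the knockdown libraries (log2 fold change -4.72, edgeR adjusted p = 1.43e-07), and the glycophorin *GYPC* was at 106 to 119 CPM and 7.73 to 16.6 CPM (-3.14). In contrast, *EPOR*, the erythropoietin receptor, rose from 1.46 to 2.87 CPM to 9.76 to 14.5 CPM (2.38, adjusted p = 8.27e-06), as did *PPOX*, an enzyme of heme synthesis (1.30). The summed level of the erythroid genes was 1572 to 1679 CPM in NT and 1049 to 1150 CPM in the knockdown libraries. The largest part of this sum was 1 gene, *EPB41*, at 450 to 519 CPM in NT and 229 to 288 CPM in the knockdown libraries. Of 26 myeloid genes, 14 were tested, and 3 were lower and 3 higher (median 0.40), both below the shares over all genes. *CTSG*, a granule protease, was at 4.77 to 5.97 CPM in NT and at 0 to 0.216 CPM in the knockdown libraries, and *CSF1R* was lower (-2.08), while the integrins *ITGAX* (1.95) and *ITGAM* (1.02) were higher.

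The spread among NT libraries followed GC content. Across 13854 genes, which are not independent replicates, Spearman's rho between transcript GC content and the log2 difference of NT replicate 3 from NT replicate 1 was 0.634. All 3 factors with a GC content under 50%, *MYB* (43.9%), *FLI1* (44.9%) and *ERG* (45.6%), were lower in NT replicate 3 than in replicate 1, and 5 of the 6 factors above 50% were higher, with *TAL1* as the exception. *LYL1*, with 69.1% GC, differed by 1.50 on the log2 scale and *GATA1*, with 60.6%, by 1.55. *FLI1*, *ERG* and *MYB* remained past a log2 fold change of -2 with a correction for length and GC content (-3.64, -2.71 and -2.16), where *NFE2* (-2.14) and *LYL1* (-2.13) joined them.

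**Figure D4:**
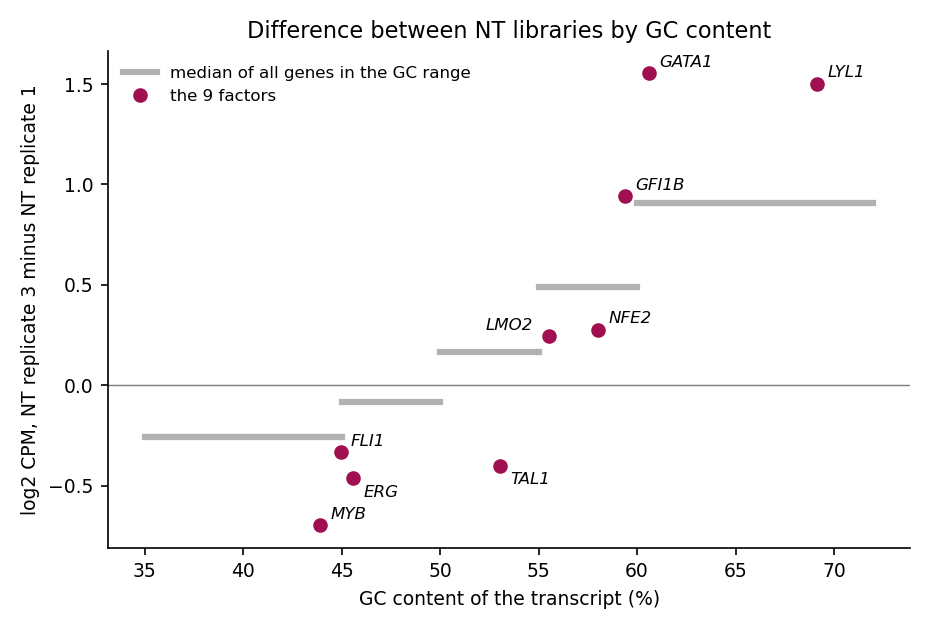
Log2 CPM of NT replicate 3 minus NT replicate 1 against the GC content of each factor's transcript, with grey bars for the median of all genes in 5 GC ranges, the first open below 45% and the last open above 60%. The medians run from -0.26 to 0.91, and LYL1 at 1.50 lies above and MYB at -0.70 below the median of their ranges.

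Genes next to the factors on the chromosome were compared with them. The nearest genes of the table on each side of the 9 factors, with *SENCR* inside *FLI1*, made 19 genes, of which 6 were lower and 8 higher with both shRNAs, against 29.7% lower and 30.1% higher over all genes, none of the 6 past the fold, with a median log2 fold change of 0.12. *AHI1*, which lies 64.4 kb from *MYB*, was at 11.4 to 15.4 CPM in NT and at 49.1 to 79.7 CPM in the knockdown libraries (log2 fold change 2.20, edgeR adjusted p = 5.88e-06), opposite in direction to *MYB*. *STIL*, next to *TAL1*, was higher (0.79, adjusted p = 2.47e-05), and *DYRK1A*, the nearest gene of the table on one side of *ERG* but 841 kb away, was lower (-1.46, adjusted p = 4.58e-07).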

How the data were processed

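RNA was measured by poly(A) RNA-Seq (TruSeq stranded mRNA kit) in 9 libraries of HNT34 cells, 3 each for NT, sh#16 and sh#87, and groups were taken from the sample titles. The deposited table holds estimated counts per gene that the authors made. The submitters' processing notes name STAR, FastQC 1.3 and GRCh38, while the header of the table names salmon, and the version and annotation are not given in the sources used here. Its sample names are shifted by 1 column relative to the values, and columns were assigned by these names. The estimated counts were whole numbers as deposited and were used without rounding.

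Genes were filtered with filterByExpr, scaled by TMM, and tested with edgeR 4.0.16 (glmQLFit and glmQLFTest, R 4.3.3) over all 9 libraries, with Benjamini-Hochberg adjustment over all 16312 genes tested. Calls required an adjusted p no higher than 0.01, and calls past the fold also a log2 change of 2 or more in size. CPM values use the TMM library sizes. The test was checked on simulated data with equal spread in all groups, so the check does not cover the wider spread of the NT libraries. The members and gene lists were chosen with earlier results of these data known. Genes named were all factors, *MECOM*, *GATA2*, *RUNX1*, 1 relative for each of 6 factors, 3 partners, the 2 highest and 2 lowest called genes of each list that passed with both shRNAs and with each, and the nearest genes; *TCF12*, *TCF4*, *SENCR*, *COL1A1*, *CD3G*, *STIL*, *DYRK1A* and *AHI1* were picked from the partners, markers and neighbours after their values were seen. Transcript length and GC content came from GENCODE on GRCh37 for 14019 genes of the table (84.4%), coordinates and promoters from RefSeq on GRCh38.p14. Alternatives were RLE and upper-quartile scaling, DESeq2 1.42.0, limma-voom 3.58.1, other filters, a replicate block, a fit of only the groups compared, removal of mitochondrially encoded genes, leaving out each library, and a length and GC correction. Intervals cover counting error only.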

Additional observations from a re-analysis of the deposited data

Results flagged for a closer look

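Results were listed here where the change with sh#87 differed from the change with sh#16 by the test of the difference itself (edgeR's quasi-likelihood test, adjusted p of at most 0.01). Both changes share the NT libraries, so the difference is the log2 ratio of sh#87 to sh#16. Among the factors it was -3.21 for *GATA1*, -1.50 for *NFE2*, -1.17 for *FLI1*, -1.16 for *GFI1B*, -1.11 for *ERG*, -0.90 for *LMO2* and -0.53 for *TAL1*. *GATA1* had 2 to 4 counts per sh#87 library and passed the filter on low counts only through the sh#16 libraries, the higher group here. Of 20 alternatives, the call was lost in 5 for *GATA1*, 6 for *GFI1B* and 8 for *TAL1*. For *MECOM*, the target, the log2 ratio was -0.43, and for *RUNX1* it was -0.67.

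Among relatives and partners the log2 ratio was -1.71 for *KLF2*, -0.93 for *SPI1*, -0.61 for *ETS1*, -0.47 for *GFI1* and -0.34 for *NFE2L2*, and it was positive for *ID3* (1.48) and *ID2* (0.70). Among the genes of the lists it was -1.46 for *CD34*, -0.96 for *RHAG*, -0.81 for *GYPC*, -0.81 for *PROCR*, -0.67 for *ANGPT1* and -0.45 for *ITGAM*, and 0.74 for *PPOX*. *KLF2*, *PROCR* and *ITGAM* were higher than NT with each shRNA and less so with sh#87. No cause of these differences was tested.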

How the results depend on the processing

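Over 21 alternatives, 692 of 737 log2 fold changes of the factors kept their direction and their side of the threshold, 35 lost and 7 gained the call, and 3 changed sign. All 3 were *GATA1* with both shRNAs, at 0.03 without sh#87 replicate 1, 0.01 without sh#87 replicate 3 and 0.10 without NT replicate 3 (-0.20 with all libraries, and -0.58 to 0.10 as single libraries were left out). The number of factors lower with sh#87 than with sh#16 ran from 4 to 8 as single libraries were left out, and the number past the fold from 0 to 1. Length and GC correction, chosen after seeing the data, put 5 rather than 3 factors past the fold with both shRNAs. Of the lists, only the myeloid genes higher moved by over 1.5 times, from 3 to 5 with upper-quartile scaling, 5 with DESeq2, 6 at an adjusted p of 0.05 and between 2 and 5 as single libraries were left out. Upper-quartile scaling moved the median of all genes from 0.05 to 0.16. *LYL1* with both shRNAs lost its call in 9 of 20 alternatives (log2 fold change -2.13 to -0.67), the cause of which was not tested. Same-numbered libraries did not deviate together (r = -0.137 to 0.083). Since the biological coefficient of variation was 25.0% in NT but 3.77% with sh#16 and 6.96% with sh#87, this cannot decide whether the numbers pair them. With the replicate number as a block, 6, 7, 9 and 6 factors were called with both shRNAs, sh#16, sh#87 and in sh#87 against sh#16 (8, 7, 9 and 7 without it), and *GFI1B* and *LYL1* were lost with both shRNAs. Depth limits *GATA1*, with 2 to 4 counts per sh#87 library.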
